A study of Mus musculus with 15 samples.

Results

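The *Cyp4a* fatty acid omega-hydroxylases were taken as the rows of the liver count table whose symbol was *Cyp4a10*, *Cyp4a12a*, *Cyp4a12b*, *Cyp4a14*, *Cyp4a31* or *Cyp4a32*, which gave 6 genes of 55573 in the table. All 6 passed the filter on low counts and were among the 17655 genes tested. Liver RNA came from 15 mice, each 8 weeks old and each sequenced as its own library: 3 WT females (FWT), 3 WT males (MWT), 5 ESR1KO females (FKO) and 4 ESR1KO males (MKO). All mice were of the strain B6N(Cg)-Esr1tm4.2Ksk/J, bred by mating heterozygotes. ESR1KO mice were homozygous for a deletion of *Esr1* exon 3, and WT mice carried the intact gene. The deletion is global, so estrogen receptor alpha was missing from every organ and not from the liver alone. According to the study's description, ESR1KO mice of both sexes are infertile and have raised testosterone, and these features cannot be told apart from the loss of the receptor in the liver. Values are given as CPM (counts scaled to the library's total after TMM scaling), as the mean ± SD of a group or for each mouse in the order of its replicate number. *Esr1* itself lay between 74.7 and 88.2 CPM in WT females, 25.0 and 51.99 in WT males, 9.67 and 19.7 in ESR1KO females and 8.22 and 16.1 in ESR1KO males, so every ESR1KO mouse was below every WT mouse. These counts come from all exons, so they bear on the labels but not on the deletion of exon 3 itself.

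CYP4A enzymes are cytochrome P450 proteins of the endoplasmic reticulum that hydroxylate the last (omega) carbon of medium and long chain fatty acids. The hydroxylated acid is oxidised further by alcohol and aldehyde dehydrogenases to a dicarboxylic acid, which peroxisomes then shorten. In the liver, *Cyp4a10* and *Cyp4a14* are textbook targets of PPARA, the nuclear receptor that senses fatty acids and switches on fat oxidation during fasting. *Cyp4a12a* is known for its androgen-dependent expression in the mouse kidney, where its enzyme makes a vasoactive hydroxylated product of arachidonic acid.

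The 6 genes lie in 1 cluster of 323 kb on chromosome 4 (GRCm38, GENCODE M21, 115299046 to 115621602). In order, the cluster holds *Cyp4a12a* (115299046 to 115332815, plus strand), *Cyp4a12b* (115411624 to 115439034, plus), *Cyp4a14* (115486200 to 115496142, minus), *Cyp4a10* (115518264 to 115533649, plus), *Cyp4a31* (115563649 to 115579015, plus) and *Cyp4a32* (115600969 to 115621602, plus). By their coding sequences they formed a near-identical pair, a near-identical trio and a single gene. *Cyp4a12a* and *Cyp4a12b* shared 98.49% of their coding bases, and the trio of *Cyp4a10*, *Cyp4a31* and *Cyp4a32* shared between 96.01% and 97.19%. *Cyp4a14* shared between 74.84% and 75.83% with the others. A stretch of 60 coding bases of exon 6, from the same alignment columns in each gene, shows bases that tell the copies apart. It was chosen for having the most differing columns in the pair and trio together, so it is not typical of the coding sequence. Over the whole alignment of the pair, 1504 of 1527 coding bases were identical, with a longest identical run of 342 bases. Capitals mark the bases that differ within the pair or within the trio, and *Cyp4a14*, which has no near-identical copy, is in lower case throughout. Bases are from GENCODE M21 transcripts and are written 5′ to 3′ along the gene.
Cyp4a12a (chr4:115326664-115326723, plus): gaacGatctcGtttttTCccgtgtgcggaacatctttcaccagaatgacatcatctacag
Cyp4a12b (chr4:115432917-115432976, plus): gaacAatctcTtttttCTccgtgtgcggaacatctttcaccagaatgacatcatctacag
Cyp4a10 (chr4:115524761-115524820, plus): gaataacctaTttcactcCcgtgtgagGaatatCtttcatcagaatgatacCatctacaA
Cyp4a31 (chr4:115570222-115570281, plus): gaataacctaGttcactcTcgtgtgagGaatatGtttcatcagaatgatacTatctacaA
Cyp4a32 (chr4:115610489-115610548, plus): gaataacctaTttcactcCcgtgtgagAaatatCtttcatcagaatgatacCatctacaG
Cyp4a14 (chr4:115492140-115492199, minus): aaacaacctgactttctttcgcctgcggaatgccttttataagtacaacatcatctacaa

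Within these 60 bases, 4 columns differed in the pair and 6 in the trio. Over the whole exon sequence, 35.82% of the runs of 100 bases of *Cyp4a12a* also occurred in *Cyp4a12b*, and 36.24% of those of *Cyp4a12b* occurred in *Cyp4a12a*. The share was 12.74% for *Cyp4a10*, 8.22% for *Cyp4a31* and 20.06% for *Cyp4a32*, each against the other genes of the trio, and 0% for *Cyp4a14*. The treatment of reads that match several places is not given in the sources used here, so counts of the pair and of the trio are uncertain as to which copy they belong to, and the sums of the copies were tested as well.

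The pair *Cyp4a12a* and *Cyp4a12b* had male-biased RNA in WT livers and no called sex difference in ESR1KO livers. *Cyp4a12a* stood at 0.378, 1.20 and 0.115 CPM in the WT females and at 168, 131 and 138 CPM in the WT males. It stood at 86.2, 99.5, 132, 107 and 130 CPM in the ESR1KO females and at 116, 137, 164 and 156 CPM in the ESR1KO males. WT females alone were low, and no mouse of another group came near them. As whole liver was sequenced, fewer cells of a type and less RNA per cell cannot be told apart. *Cyp4a12b* stood at 0.0688, 0.161 and 0.0229 CPM in WT females, which is 12 counts over the 3 libraries, and at 32.5, 24.1 and 22.2 CPM in WT males. In ESR1KO mice it stood at 9.53, 14.2, 16.7, 16.1 and 25.4 CPM in females and at 25.0, 26.1, 26.0 and 20.8 CPM in males. The order of the groups was thus the same for both genes, with WT females at the bottom and ESR1KO females next, although ESR1KO females overlapped with both groups of males.

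In WT mice, *Cyp4a12a* was 263-fold lower in females than in males (log2 fold change -8.04 ± 0.44 SE, adjusted p = 2.88e-09, edgeR) and *Cyp4a12b* was 307-fold lower (-8.26 ± 0.44, adjusted p = 2.40e-09). ESR1KO females exceeded WT females by 7.64 ± 0.42 on the log2 scale for *Cyp4a12a* (adjusted p = 6.48e-09, edgeR) and by 7.59 ± 0.43 for *Cyp4a12b* (adjusted p = 8.07e-09). In both comparisons the groups did not overlap. ESR1KO males differed from WT males by -0.02 for *Cyp4a12a* (95% interval -0.62 to 0.57) and by -0.10 for *Cyp4a12b* (95% interval -0.61 to 0.41), and neither was called. WT female replicate 2, the highest WT female for both genes, set the size of the folds: without it the WT sex difference was -9.11 for *Cyp4a12a* and -8.99 for *Cyp4a12b*, and the genotype difference in females was 8.72 and 8.32. With the counts of the copies added together, the log2 fold change was -8.07 between the WT sexes (adjusted p = 3.64e-09, edgeR) and 7.64 between the genotypes in females (adjusted p = 7.79e-09).

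**Figure D1:**
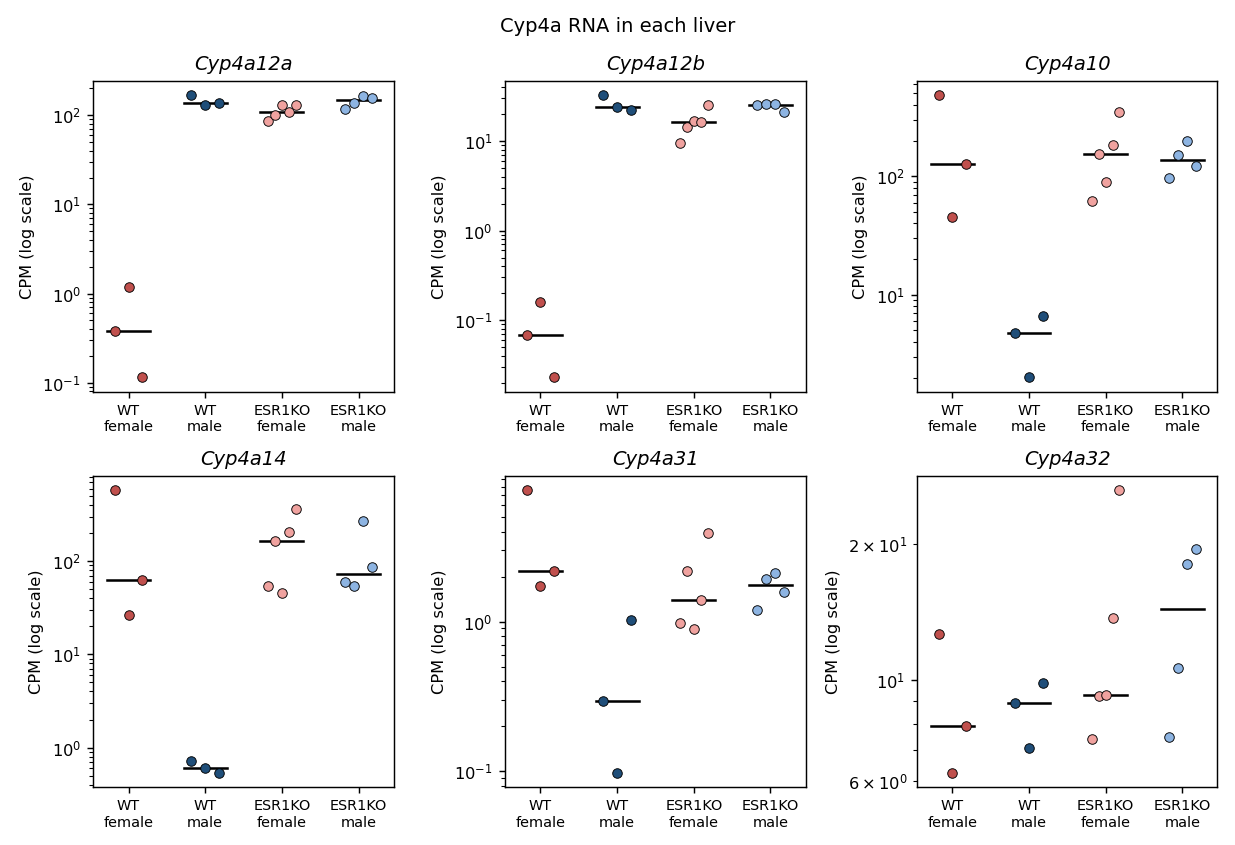
RNA of the 6 *Cyp4a* genes in each liver, in CPM on a log scale that differs between panels. Each point is 1 mouse and the line is the median of its group. WT females alone are low for *Cyp4a12a* and *Cyp4a12b* (at most 1.20 CPM), and WT males alone are low for *Cyp4a10* and *Cyp4a14* (at most 6.60 CPM).

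*Cyp4a10* and *Cyp4a14* had the mirror pattern: WT males alone were low. *Cyp4a10* stood at 483, 45.2 and 127 CPM in WT females and at 4.74, 2.005 and 6.60 CPM in WT males. It stood at 61.2, 154, 89.5, 182 and 346 CPM in ESR1KO females and at 97.5, 151, 197 and 122 CPM in ESR1KO males. Every mouse of the other 3 groups was above every WT male, and those 3 groups overlapped with each other. *Cyp4a14* stood at 576, 26.5 and 63.5 CPM in WT females and at 0.716, 0.611 and 0.539 CPM in WT males. In ESR1KO mice *Cyp4a14* stood at 54.1, 164, 45.7, 203 and 364 CPM in females and at 59.6, 54.7, 267 and 86.5 CPM in males. The spread within a group was large for both genes: the highest WT female had 21.7 times the *Cyp4a14* CPM of the lowest, against 1.33 times in WT males.

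Between the WT sexes, *Cyp4a10* was 48.6-fold higher in females (log2 fold change 5.60 ± 0.83 SE, adjusted p = 3.61e-04, edgeR) and *Cyp4a14* was 360-fold higher (8.49 ± 1.33, adjusted p = 6.46e-04). Both sizes leaned on WT female replicate 1, and without it they were 4.26 (adjusted p = 7.54e-04, edgeR) and 6.19 (adjusted p = 9.39e-04). ESR1KO males exceeded WT males by 4.98 ± 0.79 on the log2 scale for *Cyp4a10* (31.6-fold, adjusted p = 0.00384, edgeR) and by 7.57 ± 1.28 for *Cyp4a14* (190-fold, adjusted p = 0.00551). Without ESR1KO male replicate 3 the *Cyp4a14* difference was 6.76 (adjusted p = 0.0123, edgeR), and without WT male replicate 3 its adjusted p was 0.0497, just under the threshold of 0.05. ESR1KO females differed from WT females by -0.39 for *Cyp4a10* (95% interval -1.65 to 0.87) and by -0.42 for *Cyp4a14* (95% interval -2.11 to 1.28). Neither was called, and without WT female replicate 1 both values turned positive, to 0.95 and 1.89, and were again not called.

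The 2 genes largely varied together from mouse to mouse, except within WT males. The mouse with the most *Cyp4a10* was also the mouse with the most *Cyp4a14* in the WT females (replicate 1), the ESR1KO females (replicate 5) and the ESR1KO males (replicate 3). In WT males, replicate 3 had the most *Cyp4a10* (6.60 CPM) and the least *Cyp4a14* (0.539 CPM). Pearson's r of their log2 CPM was 0.98 over the 15 mice, and r was 0.99 between *Cyp4a12a* and *Cyp4a12b*. Between the *Cyp4a10* and *Cyp4a14* genes on one side and the *Cyp4a12* pair on the other, r lay between -0.28 and -0.25. These values are descriptions, because the mice fall into 4 groups that set much of r.

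*Cyp4a31* and *Cyp4a32* are the near-identical copies of *Cyp4a10*. Per kb of exon, their group means lay between 0.189 and 1.52 CPM for *Cyp4a31* and between 5.60 and 9.05 CPM for *Cyp4a32*, against 67.3 to 104 CPM for *Cyp4a10* outside WT males. In CPM, *Cyp4a31* stood at 7.55, 1.73 and 2.18 CPM in WT females and at 0.296, 0.0978 and 1.03 CPM in WT males. It stood at 0.978, 2.18, 0.886, 1.39 and 3.94 CPM in ESR1KO females and at 1.19, 1.94, 2.11 and 1.57 CPM in ESR1KO males. WT males were again the lowest group, but WT male replicate 3 reached above 2 of the ESR1KO females. The WT sex difference was 2.90 ± 0.70 on the log2 scale (7.46-fold, adjusted p = 0.0209, edgeR), and it lost its call without WT female replicate 1 (1.92, adjusted p = 0.148), without WT male replicate 1 (adjusted p = 0.110), without WT male replicate 2 (adjusted p = 0.0876) and with the WT mice fitted alone (adjusted p = 0.0654). Without WT male replicate 3 it was 4.28 (adjusted p = 0.00917, edgeR). In males, the genotype difference of *Cyp4a31* was 1.74 ± 0.68 and was not called (adjusted p = 0.291, edgeR), although every ESR1KO male was above every WT male.

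*Cyp4a32* was called in no comparison. It stood at 12.6, 6.25 and 7.93 CPM in WT females and at 8.89, 7.07 and 9.86 CPM in WT males. It stood at 7.41, 9.21, 9.28, 13.7 and 26.2 CPM in ESR1KO females and at 7.48, 10.6, 18.1 and 19.4 CPM in ESR1KO males. All 4 groups overlapped, and the log2 difference between the WT sexes was 0.06 (95% interval -0.84 to 0.96). In WT males *Cyp4a32* had the highest counted level of the trio, at 5.60 ± 0.92 CPM per kb against 2.11 ± 1.10 for *Cyp4a10*. Reads shared between the copies leave that order uncertain. The counts of *Cyp4a10*, *Cyp4a31* and *Cyp4a32* added together gave smaller log2 differences than *Cyp4a10* alone, 4.09 between the WT sexes (adjusted p = 0.00186, edgeR) and 3.54 between the genotypes in males (adjusted p = 0.0137).

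**Figure D2:**
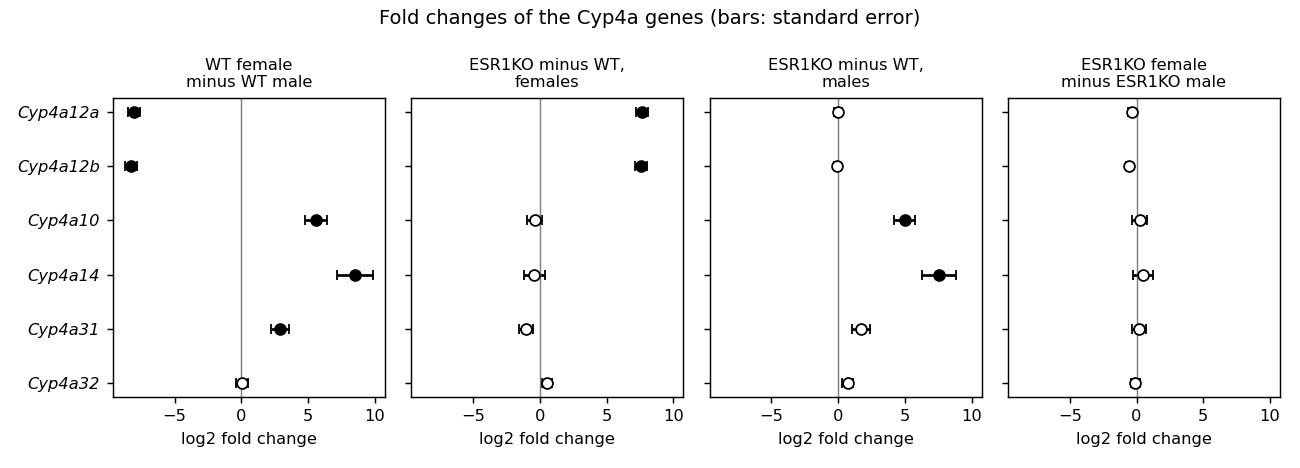
Log2 fold changes of the 6 *Cyp4a* genes in 4 comparisons, with bars of 1 standard error from edgeR. Filled points have an adjusted p under 0.05, and open points do not. *Cyp4a12a* and *Cyp4a12b* are filled in the WT sex comparison and in females, *Cyp4a10* and *Cyp4a14* in the WT sex comparison and in males, and no gene is filled between the ESR1KO sexes.

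Across the family, 3 of 6 members were called higher in WT females than in WT males, where 2.67% of all genes tested were, and 2 of 6 were called lower, where 2.2% were. Between ESR1KO and WT females, 2 of 6 were called higher (3.14% of all genes) and 0 lower (2.57%). Between ESR1KO and WT males, 2 of 6 were called higher (0.833%) and 0 lower (0.583%). In both genotype comparisons DESeq2 also called 0 lower, and 0 were lower at an unadjusted p under 0.05. No member was called in both genotype comparisons: the members that differed in females were the *Cyp4a12* pair, and those that differed in males were *Cyp4a10* and *Cyp4a14*. The median log2 fold change over the 6 members was 1.48 in the WT sex comparison, 0.09 in females and 1.22 in males, against 0.01, -0.0013 and -0.0011 over all genes tested.

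The interaction, which is the genotype difference in females minus that in males, tested whether the 2 sexes responded to the deletion in different ways. It was called for 4 of the 6 members, 2 positive (1.02% of all genes) and 2 negative (0.923%). It was 7.67 ± 0.48 for *Cyp4a12a* (adjusted p = 1.47e-07, edgeR) and 7.69 ± 0.50 for *Cyp4a12b* (adjusted p = 1.78e-07). For *Cyp4a10* it was -5.37 ± 0.94 (adjusted p = 0.00407, edgeR) and for *Cyp4a14* -7.98 ± 1.44 (adjusted p = 0.00523). Without WT female replicate 1 the interaction was -4.03 for *Cyp4a10* and -5.68 for *Cyp4a14*, without ESR1KO male replicate 3 it was -7.18 for *Cyp4a14*, and without WT female replicate 2 it was 8.74 for *Cyp4a12a* and 8.42 for *Cyp4a12b*, each still called. *Cyp4a31* (-2.75, adjusted p = 0.147, edgeR) and *Cyp4a32* (-0.14, adjusted p = 0.933) were not called on their own counts, while the sum of the trio was (-3.89, adjusted p = 0.0222, edgeR).

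Between ESR1KO females and ESR1KO males, 0 of 6 members were called in either direction by edgeR, where 0.159% of all genes were called higher and 0.113% lower. DESeq2 also called 0, and 1 member had an unadjusted p under 0.05. That member was *Cyp4a12b*, with a difference of -0.57 (95% interval -1.02 to -0.13, adjusted p = 0.197, edgeR) and an exact 2-sided permutation p of 0.0476 on log2 CPM, where the smallest p for 5 against 4 mice is 0.0159. The difference of *Cyp4a12a* was -0.37 (95% interval -0.89 to 0.15), that of *Cyp4a10* 0.23 (-0.94 to 1.402) and that of *Cyp4a14* 0.51 (-1.08 to 2.09). The interval for *Cyp4a14* is wide and holds differences of more than 2-fold in either direction. Without ESR1KO female replicate 5 the difference of *Cyp4a14* was -0.0035 and without ESR1KO male replicate 3 it was 1.31, neither called, and that of *Cyp4a10* ran from -0.22 to 0.44 over its alternatives. The intervals given for *Cyp4a10* and *Cyp4a12b*, and that for *Cyp4a31* (-0.96 to 1.26), also reach past 2-fold. A sex difference of 2-fold in ESR1KO livers could thus be missed with 5 and 4 mice, for *Cyp4a14* and for these genes. The lack of a call does not show equal levels for any member.

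ESR1KO females were also set against WT males, a comparison that shares its mice with those above. The members called were *Cyp4a10*, 5.21 ± 0.79 higher in ESR1KO females (adjusted p = 0.00117, edgeR), and *Cyp4a14*, 8.07 ± 1.29 higher (adjusted p = 0.00185), that is 2 of 6 higher (1.38% of all genes) and 0 lower (1.23%), with 0 lower by DESeq2 and 1 lower at an unadjusted p under 0.05. *Cyp4a12a* differed by -0.39 (95% interval -0.95 to 0.17) and *Cyp4a12b* by -0.68 (95% interval -1.16 to -0.20, adjusted p = 0.135, edgeR). Without ESR1KO female replicate 5, which had the most *Cyp4a12b* of its group, the *Cyp4a12b* difference was -0.89 and was called (adjusted p = 0.0171, edgeR). The exact 2-sided permutation test could not go below 0.10 for 3 against 3 mice or below 0.0571 for 4 against 3. It gave those smallest values for each called member in the WT sex comparison and in males, and 0.0357, the smallest for 5 against 3, for the *Cyp4a12* pair in females and for *Cyp4a10* and *Cyp4a14* here. *Cyp4a31*, which was not called in males, also reached 0.0571 there. A smallest value is reached whenever 2 groups do not overlap, and the share of all genes that reach it was not computed.

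**Figure D3:**
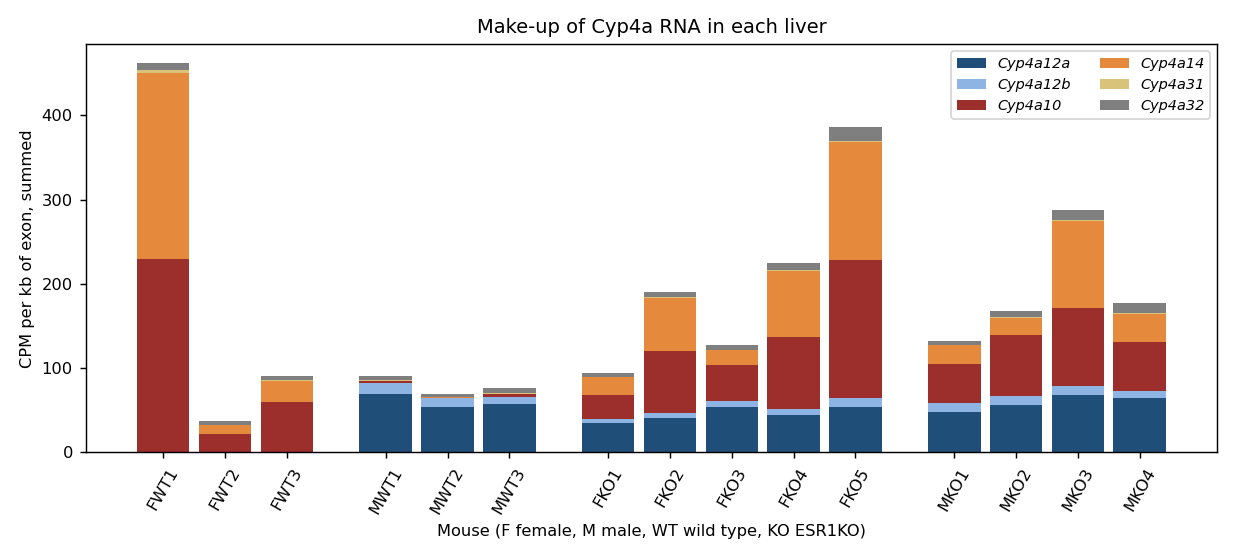
Summed RNA of the 6 *Cyp4a* genes in each liver, in CPM per kb of exon, with a bar per mouse split by gene. WT male bars are almost all *Cyp4a12a* and *Cyp4a12b*, WT female bars almost all *Cyp4a10* and *Cyp4a14*, and ESR1KO bars of both sexes hold both kinds.

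Per kb of exon, a scale that corrects for length but not for reads that match several copies, the make-up of the family differed between the groups. Runs of 50 bases found in another gene too made up 48.88% of *Cyp4a12a*, 49.45% of *Cyp4a12b* and 46.79% of *Cyp4a32*. They made up 30.49% of *Cyp4a10*, 21.79% of *Cyp4a31* and 0.25% of *Cyp4a14*. Shares, ratios and orders between genes are therefore uncertain, as the copies may be undercounted to different degrees. *Cyp4a12a* and *Cyp4a12b* made up 90.8%, 91.7% and 86.7% of the family's CPM per kb in WT males and 0.0401%, 1.52% and 0.0627% in WT females. Their share ran from 16.6% to 48.0% in ESR1KO females, with a median of 24.7%, and from 27.4% to 43.9% in ESR1KO males, with a median of 40.7%, so that every ESR1KO liver lay between the WT sexes. *Cyp4a10* and *Cyp4a14* made up 97.5%, 85.6% and 93.3% in WT females and 2.76%, 1.70% and 4.36% in WT males, against 47.01% to 78.6% in ESR1KO females and 51.3% to 68.2% in ESR1KO males. The sum over the family was 462, 36.9 and 90.7 CPM per kb in WT females and 91.3, 69.9 and 76.5 in WT males. In ESR1KO mice the sum ranged from 94.6 to 387 CPM per kb in females and from 133 to 287 in males, above every WT male.

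Within the pair, *Cyp4a12a* had the higher counted level per kb in each of the 15 mice, with a ratio to *Cyp4a12b* between 4.60 and 8.94. The ratio of *Cyp4a14* to *Cyp4a10* per kb was between 0.0663 and 0.247 in WT males and between 0.293 and 1.10 in the other 3 groups. In WT males the order of the mean levels was *Cyp4a12a* (60.2 ± 8.1 CPM per kb, SD), *Cyp4a12b* (10.97 ± 2.3), *Cyp4a32* (5.60 ± 0.92), *Cyp4a10* (2.11 ± 1.10), *Cyp4a14* (0.239 ± 0.034) and *Cyp4a31* (0.189 ± 0.196), and only the last 2 lay within 1 SD of each other. In WT females *Cyp4a10* (104 ± 110) and *Cyp4a14* (85.3 ± 118) led with values that overlapped, followed by *Cyp4a32* (5.82 ± 2.16), *Cyp4a31* (1.52 ± 1.29), *Cyp4a12a* (0.233 ± 0.234) and *Cyp4a12b* (0.0352 ± 0.0294). In ESR1KO livers the order began with *Cyp4a10* at 79.0 ± 52.8 in females and 67.3 ± 20.2 in males. *Cyp4a14* followed in females (63.9 ± 49.98) and *Cyp4a12a* in males (59.2 ± 8.9), with values for *Cyp4a10*, *Cyp4a14* and *Cyp4a12a* that overlapped in both sexes.

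**Figure D4:**
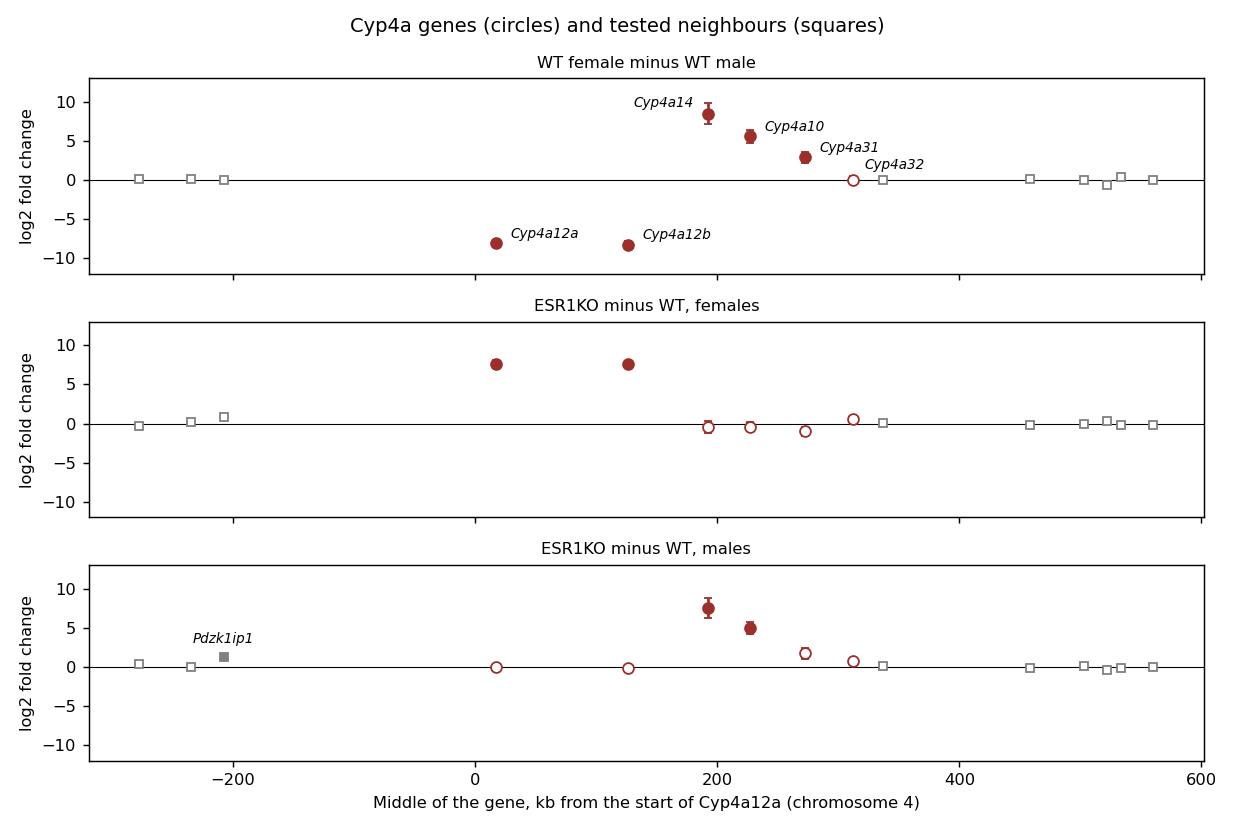
Log2 fold changes along the cluster in 3 comparisons, with bars of 1 standard error. The x axis is the distance of the middle of each gene from the start of *Cyp4a12a* in kb. Circles are the 6 *Cyp4a* genes, squares the 9 tested neighbours, and filled symbols have an adjusted p under 0.05. The *Cyp4a12* pair sits together at the left of the cluster and differs in females, and *Cyp4a14* and *Cyp4a10* sit next to each other and differ in males.

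*Cyp4a12a* and *Cyp4a12b* are neighbours among the 6 genes, and so are *Cyp4a14* and *Cyp4a10*, which lie on opposite strands and differ in sequence. *Cyp4a31* and *Cyp4a32* lie next to *Cyp4a10*, but neither was called between the genotypes of either sex on its own counts, and position itself was not tested. Of 28 other genes of the table within 300 kb of the cluster, 9 were tested, and edgeR called 1 of them, in 1 comparison. That gene was *Pdzk1ip1* (chromosome 4, 115088708 to 115093899, plus strand), which was higher in ESR1KO than in WT males by 1.26 on the log2 scale (adjusted p = 0.0245, edgeR). DESeq2 also called *Pdzk1ip1* higher in ESR1KO females than in WT females (0.90) and WT males (0.84), and *Mob3c* higher in females than in males among WT (0.38) and ESR1KO mice (0.35). The tested neighbours had a median log2 fold change of 0.03 between the WT sexes and of 0.03 between the genotypes in males.

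Genes that work before or after omega-hydroxylation were followed as a list of 26, all of which were tested. Between the WT sexes, 4 were higher in females (2.67% of all genes tested) and 1 was lower (2.2%), with a list median of 0.20. At an unadjusted p under 0.05, 8 were higher and 1 was lower. The share of all genes at that threshold, or called by DESeq2, was not computed. Such counts therefore have no background beside them, here and in the lists that follow. The 4 included the peroxisomal thioesterases *Acot3* (6.13 higher, adjusted p = 1.1e-05, edgeR) and *Acot4* (2.30) and the peroxisomal fatty acid transporter *Abcd2* (2.83). The one that was lower was *Scp2*, whose product is a peroxisomal thiolase and sterol carrier, at -1.80. Between ESR1KO and WT males, 6 were higher (0.833% of all genes) and 0 were lower (0.583%), and the list median was 0.24. The 6 were led by *Acot3* (3.56), *Abcd2* (1.62) and *Acaa1b* (1.58), a peroxisomal thiolase. In that comparison DESeq2 called 7 higher, and 11 were higher and 0 lower at an unadjusted p under 0.05. Between ESR1KO and WT females, *Scp2* was higher by 1.60 and *Por*, the reductase that passes electrons to P450 enzymes, was lower (-0.96, adjusted p = 0.0301, edgeR). Of all genes, 3.14% were called higher and 2.57% lower there. DESeq2 called 2 of the 26 higher and 3 lower, and 2 were higher and 7 lower at an unadjusted p under 0.05.

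*Acot3* stood at 144, 56.0 and 58.3 CPM in WT females and at 0.963, 0.293 and 2.22 CPM in WT males. In ESR1KO mice it stood at 25.2, 24.6, 27.4, 17.8 and 71.0 CPM in females and at 19.3, 16.4, 11.4 and 11.1 CPM in males. As with *Cyp4a10* and *Cyp4a14*, WT males were the low group, although ESR1KO livers other than ESR1KO female replicate 5 lay below all WT females. Relative to WT males, ESR1KO females had 3 of the 26 higher (1.38% of all genes), *Acot3* (4.76), *Abcd2* (2.17) and *Acot4* (1.63), and 0 lower (1.23%). At an unadjusted p under 0.05, 6 were higher and 0 lower. The interaction was called for 6 of the 26, positive for *Scp2* (1.74) and negative for 5, led by *Acot3* (-4.93), *Abcd2* (-2.28) and *Acot4* (-1.90). Of all genes, 1.02% were called positive and 0.923% negative. At an unadjusted p under 0.05, for which no share of all genes was computed, 1 of the 26 was positive and 12 were negative. Between the ESR1KO sexes edgeR called 0 of the 26, DESeq2 called 3 lower in females, and 2 were higher and 8 lower at an unadjusted p under 0.05.

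A further 25 targets of PPARA, which in the liver drive mitochondrial fat oxidation, fat storage and ketone synthesis, were followed. edgeR called 2 of the 25 higher in WT females than in WT males (2.67% of all genes tested) and 0 lower (2.2%). Between ESR1KO and WT males it called 4 higher (0.833%) and 0 lower (0.583%). In that comparison DESeq2 called 5 higher, and 10 were higher and 0 lower at an unadjusted p under 0.05. *Vnn1*, which makes pantothenic acid, and the thioesterase *Acot2* were higher in WT females than in WT males (1.98 each, with adjusted p = 0.0133 and 0.00223, edgeR). They were higher in ESR1KO than in WT males too (1.94 and 1.59), together with *Pdk4*, a kinase that limits glucose oxidation (1.51), and *Cd36*, a fatty acid transporter (1.12). *Vnn1* stood at 86.6, 29.1 and 44.3 CPM in WT females and at 13.2, 10.7 and 16.6 CPM in WT males. It stood at 22.5, 48.1, 36.5, 58.8 and 52.5 CPM in the 5 females with the deletion and at 42.3, 35.9, 96.1 and 32.7 CPM in the 4 males. Its highest mouse was the mouse with the most *Cyp4a14* in WT females and in ESR1KO males, but not in ESR1KO females. The other 23 targets (2 of them higher at an unadjusted p under 0.05) were not called between the WT sexes, *Cpt1a*, the gatekeeper of mitochondrial fat oxidation, among them. Between the ESR1KO and WT females, 1 of 25 was called higher (*Fabp1*, 0.61), where 3.14% of all genes were, and 4 were higher at an unadjusted p under 0.05. Relative to WT males, 2 were called higher in ESR1KO females (*Vnn1*, 1.69, and *Acot2*, 1.60), where 1.38% of all genes were. DESeq2 called 4 higher and 0 lower there, and 6 were higher and 1 lower at an unadjusted p under 0.05. Between the ESR1KO sexes 0 were called by edgeR (1 lower in females by DESeq2, and 4 lower at an unadjusted p under 0.05). edgeR called the interaction for *Acot2* (-1.97), where 0.923% of all genes were called negative. DESeq2 called 3 of the 25 negative there, *Acot2*, *Vnn1* (-2.22) and *Pdk4* (-1.56), and 5 were negative at an unadjusted p under 0.05.

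**Figure D5:**
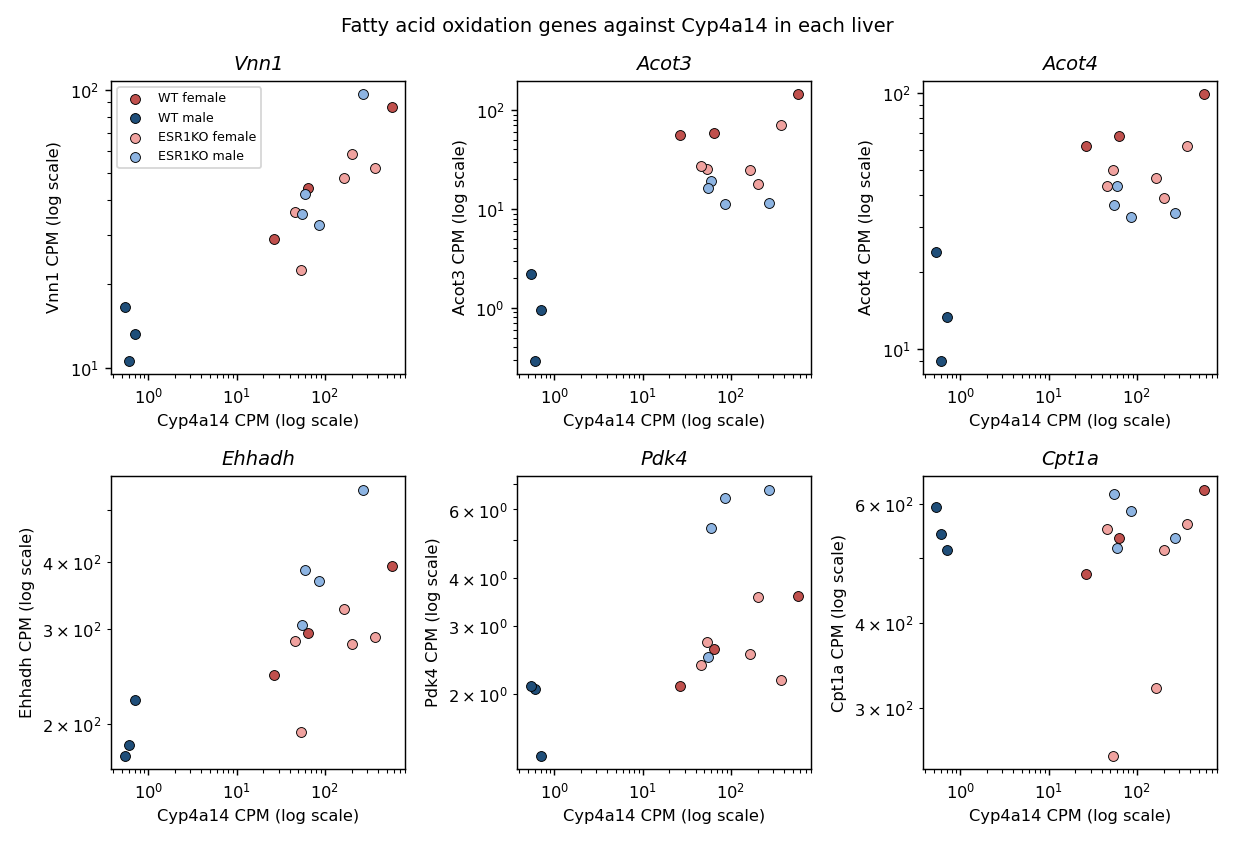
CPM of 6 genes of fatty acid oxidation against the CPM of *Cyp4a14*, both on log scales, with 1 point per mouse coloured by group. The 3 WT males, at 0.539 to 0.716 CPM of *Cyp4a14*, have the least *Vnn1*, *Acot3* and *Acot4* of the 15 mice, and for *Cpt1a* they lie among the other groups.

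Of 14 genes for factors that act on *Cyp4a* or on sex-biased liver genes, *Ppara* was called in no comparison, with group means between 218 and 266 CPM. Its level was 235 ± 11 CPM (SD) in WT females and 236 ± 28 in WT males, and with the deletion 218 ± 53 in females and 266 ± 25 in males. The log2 difference of *Esr1* between the genotypes was -2.64 in females and -1.62 in males (adjusted p = 4.5e-06 and 0.00445, edgeR). *Cux2*, a transcriptional repressor that is female-biased in the liver, was higher in WT females than in WT males by 6.14, lower in ESR1KO than in WT females (-3.32) and higher in ESR1KO females than in ESR1KO males (3.07) and WT males (2.82). *Esr1* (1.18) and the xenobiotic receptor gene *Nr1i3* (0.95) were also higher in WT females than in WT males. *Stat5a*, which carries the growth hormone signal, was lower in ESR1KO than in WT females (-0.84). In that comparison edgeR called 3 of the 14 lower (2.57% of all genes) and 0 higher. At an unadjusted p under 0.05, 8 were lower and 0 higher, and the list median was -0.31. edgeR called the interaction for 0 of the 14, DESeq2 for 1 (negative), and 5 were negative at an unadjusted p under 0.05.

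Of 15 other *Cyp4* genes, 9 were tested, and *Cyp4v3* was the one gene called by edgeR, lower in WT females (-0.86) and in ESR1KO females (-0.82) than in WT males. DESeq2 also called it lower in ESR1KO than in WT males (-0.66). *Cyp4a29* and *Cyp4a30b* had 0 counts in all 15 mice. Zonation was followed because many P450 genes, though not all, are concentrated around the central vein. Of 10 pericentral genes, edgeR and DESeq2 called 0 between the WT sexes (2 higher in females at an unadjusted p under 0.05) and 0 between the genotypes in males (1 higher and 1 lower), and the deletion went with lower levels of 2 of them in females, *Cyp1a2* (-0.89) and *Lgr5* (-0.80) by edgeR. In that comparison, where the *Cyp4a12* pair was also called, edgeR called 2.57% of all genes lower. DESeq2 called 3 pericentral genes lower there, 6 were lower at an unadjusted p under 0.05, and the list median was -0.48. Relative to WT males, ESR1KO females had higher *Rgn* (0.67) and lower *Cyp1a2* (-1.01). Of 10 periportal genes, *Ctsc* was higher (1.15) and *Cyp2f2* lower (-0.95) in WT females than in WT males, *Hsd17b13* was higher (0.40) and *Ctsc* lower (-0.74) in ESR1KO than in WT females, and *Cyp2f2* was lower in ESR1KO females than in WT males (-0.80). Between ESR1KO and WT females, 5 periportal genes were lower at an unadjusted p under 0.05, with a list median of -0.41. Of 14 clock genes, which move with the hour of collection, *Bhlhe41* was lower in WT females than in WT males (-1.81) and *Per3* lower in ESR1KO than in WT females (-0.59). Of all genes, 2.2% and 2.57% were called lower in these comparisons. In the other 4 comparisons edgeR called 0 clock genes, DESeq2 called 1 in the interaction, and between 1 and 4 had an unadjusted p under 0.05. The part of zonation or of the hour of collection in the *Cyp4a* differences was not tested.

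The livers carried the markers of their tissue, with a summed CPM of 6 hepatocyte markers between 75510 and 108400. *Alb*, which made up most of that sum, was higher in WT females than in WT males (0.66), and the list median of that comparison was -0.22. DESeq2 also called *Apoa1* (-0.65) and *Ttr* (-0.37) lower in WT females. It called *Alb* higher in ESR1KO males (0.40) and ESR1KO females (0.44) than in WT males, with an interaction of -0.61. *Ttr* was called higher by DESeq2 in ESR1KO than in WT females (0.40). edgeR did not call these differences with genotype. Of 5 cholangiocyte markers, *Krt19* (1.23) and *Epcam* (0.95) were higher in ESR1KO than in WT males, where 0.833% of all genes were called higher. Their summed level was 41.3 to 59.3 CPM in ESR1KO males and 34.0 to 55.6 in WT males, over the 5 markers. *Epcam* was also higher (1.08) and *Sox9* lower (-1.03) in WT females than in WT males, and *Epcam* was higher in ESR1KO females than in WT males (0.87), with an interaction of -1.17, while *Spp1* was higher in ESR1KO than in WT females (0.60). Of 5 Kupffer cell markers, *Vsig4* was higher in ESR1KO females than in ESR1KO males (0.61) and WT males (0.48) by edgeR. Of all genes, edgeR called 0.159% and 1.38% higher in these comparisons. DESeq2 called 4 of the 5 higher in ESR1KO females than in ESR1KO males, and 4 had an unadjusted p under 0.05, with a list median of 0.46. No share of all genes was computed for these last counts. edgeR called 0 of the endothelial, stellate cell and lymphocyte markers (5 of each, all tested) in any comparison, DESeq2 called 1 endothelial marker between the genotypes in females, and at most 2 of a list had an unadjusted p under 0.05. Since *Cyp4a12a* is abundant in kidney, 8 kidney markers were followed: their summed level was 0.458 to 5.48 CPM over the 15 mice, 4 or 5 of them had 0 counts in each group, and the 1 tested, *Lrp2*, was lower in WT females (-1.94) and in ESR1KO females (-1.56) than in WT males. Of 4 adipose markers, 1 was tested, *Cfd*, which was higher in ESR1KO than in WT males by edgeR (5.86). The summed level of the 4 was 0.918 to 9.33 CPM in ESR1KO males and 0.0494 to 0.0951 in WT males. *Cfd* made up nearly all of the sum with the deletion, at up to 9.32 CPM. The mean of *Adipoq* was 0.0208 CPM for ESR1KO males against 0.0188 for WT males, and that of *Plin1* was 0.0193 against 0. *Lep* had 0 counts in every group. DESeq2 also called *Cfd* higher in ESR1KO females than in WT females (3.61) and WT males (3.14) and lower than in ESR1KO males (-2.79), and the summed level was 0.272 to 1.10 CPM in ESR1KO females and 0.0231 to 0.138 in WT females. The part of these cell types in the *Cyp4a* differences was not tested.

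The genes most like *Cyp4a12a* over the 15 mice, by Pearson's r of log2 CPM among 11635 genes outside the family, were *Nat8* (0.97), *Nat8f5* (0.96), *C730027H18Rik* (0.96), *Scp2* (0.96) and *Col5a3* (0.96). Each had its lowest group mean in WT females, for example 0.460 CPM for *Nat8* against 9.05 in WT males and, with the deletion, 6.21 in females and 6.17 in males. Those most like *Cyp4a10* were *Vnn1* (0.92), *Acot2* (0.91), *Ces1d* (0.90), *Ntrk2* (0.89) and *Pde4d* (0.89). Those most like *Cyp4a14* were *Vnn1* (0.92), *Khdrbs3* (0.92), *Ces1d* (0.92), *Acot2* (0.92) and *Vldlr* (0.92). Each of these 7 genes had its lowest group mean in WT males, for example 1.16 CPM for *Vldlr* against 8.95 in WT females and, with the deletion, 6.61 in females and 5.61 in males. These likenesses are descriptions of the same 15 mice in 4 groups, which set much of r. Spearman's rank correlations of the same genes ran from 0.56 to 0.78 with *Cyp4a12a*, from 0.64 to 0.94 with *Cyp4a10* and from 0.64 to 0.91 with *Cyp4a14*.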

How the data were processed

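RNA of 15 livers, freed of ribosomal RNA, was read from both ends on 1 lane, and libraries with few reads had a further run (which ones is not stated). Per the labels and methods, the authors used Trimmomatic, STAR (GRCm38) and HTSeq. Their deposited table gives raw counts per gene. The sources used here do not give its annotation release, its use of strand or how reads with several matches were handled. A mouse had between 27799061 and 78624766 counts, with TMM factors from 0.957 to 1.04. Genotype and sex in the labels set the 4 groups, and each replicate was 1 mouse. The closest pair of replicates still differed by a chi-square of 24.7 per gene, far above sampling noise.

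The table was analysed with edgeR 4.0.16 (R 4.3.3). filterByExpr kept 17655 genes. A quasi-likelihood model with a mean per group was fitted to all 15 mice, and calls were made at a Benjamini-Hochberg adjusted p under 0.05 over the genes tested. Shares of all genes are of these calls, and none was computed for DESeq2 or for an unadjusted p. CPM used TMM factors, and log2 CPM a prior count of 2. Exact permutation tests on log2 CPM were 2-sided. The model was checked on simulated data. Gene positions, transcripts and exon lengths came from GENCODE M21, which held 55480 of the table's genes.

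The 6 members and the gene lists were chosen with earlier results of these data known. All members are named, with, from each list, up to 3 genes of the largest fold change per direction and comparison, the 5 genes most like *Cyp4a12a*, *Cyp4a10* and *Cyp4a14* (mean log2 CPM of at least 1), and the called neighbours; 1 gene that this rule names is not reported here. *Ppara*, *Cpt1a* and genes at 0 were added after their values were seen. Alternatives were DESeq2's size factors, total counts, DESeq2 1.42.0, no filter, 1 CPM in at least 3 libraries, the groups compared alone, a replicate block, copies summed, a log2 fold change of at least 1.5, and each mouse left out.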

Additional observations from a re-analysis of the deposited data

Results flagged for a closer look

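The genotype difference depended on sex for 4 of the 6 *Cyp4a* genes, by edgeR's test of the interaction over all 15 mice. The difference between females and males in the effect of the deletion was 7.67 for *Cyp4a12a* and 7.69 for *Cyp4a12b* on the log2 scale, and -5.37 for *Cyp4a10* and -7.98 for *Cyp4a14*. The signs are opposite because the *Cyp4a12* pair differed between the genotypes in females and the other 2 genes in males. In the groups of 4 and 5 mice, 12 sets of values were searched for a mouse far from its group, and none was flagged. ESR1KO female replicate 5 was thus not flagged at 26.2 CPM of *Cyp4a32*, against 7.41 to 13.7 in the rest of its group. The WT groups of 3 mice were not searched. They hold WT female replicate 1, at 576 CPM of *Cyp4a14* against 26.5 and 63.5 in the other WT females.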

How the results depend on the processing

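Over 36 results (6 genes in 6 comparisons), 807 of 822 alternatives kept the direction and the side of the threshold for called values, or the lack of a call, and 0 reversed a call. With the near-identical copies summed, the count of members called rose from 2 to 4 in ESR1KO against WT males and from 2 to 4 in ESR1KO females against WT males, because *Cyp4a31* and *Cyp4a32* then carry the call of their sum with *Cyp4a10*. For the same reason it went from 5 to 6 between the WT sexes and from 4 to 6 in the interaction. With no filter on low counts, 4 members were also called in ESR1KO females against WT males, with *Cyp4a31* (adjusted p = 0.0335, edgeR) and *Cyp4a12b* (adjusted p = 0.0387) added, and *Cyp4a31* was called in the interaction (adjusted p = 0.0170). The cause was not tested. Replicate numbers did not pair the mice: the correlation of deviations from the group means lay between -0.19 and 0.14 for 19 pairs of mice with the same number and between -0.17 and 0.22 for 64 other pairs. With a replicate block, 5 members were called between the WT sexes and 4 in the interaction, as without it. Precision is limited by 3 to 5 mice per group, and by 12 counts of *Cyp4a12b* and 79 of *Cyp4a12a* over the WT females and 88 of *Cyp4a14* over the WT males.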
